A study of Mus musculus with 4 samples.

Results

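The melanocortin and neuropeptide Y (NPY) genes of the arcuate nucleus (ARC) were taken as 9 named rows of the deposited gene list: *Agrp*, *Npy*, *Pomc* and *Cartpt*, which encode peptides, and *Mc3r*, *Mc4r*, *Npy1r*, *Npy2r* and *Npy5r*, which encode receptors. These are 9 of the 31053 genes counted, and all 9 had UMIs in all 4 libraries. A UMI (unique molecular identifier) stands for 1 captured transcript. The libraries were 3′ single-nucleus RNAseq libraries of bilateral ARC punches from male wildtype C57BL/6J mice, 10 weeks old at collection. DOCA-salt mice had carried a subcutaneous pellet of deoxycorticosterone acetate (DOCA) for 3 weeks and could drink saline beside water, and Sham mice had undergone sham surgery. Each treatment had 2 libraries, numbered 1 and 2 as in the labels, and each library held the nuclei of 2 mice pooled, so that a value belongs to a pool and not to a mouse.

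Antagonistic cell groups of the ARC are the classical users of these genes. Neurons that make agouti-related peptide (*Agrp*) also make NPY and promote feeding, and *Agrp* blocks the melanocortin receptors *Mc3r* and *Mc4r*. Neurons that make pro-opiomelanocortin (*Pomc*) release its product α-melanocyte-stimulating hormone, which activates *Mc3r* and *Mc4r*, and many of them also make the CART peptide (*Cartpt*). NPY acts on *Npy1r*, *Npy5r* and *Npy2r*, of which *Npy2r* is known as the autoreceptor of NPY neurons.

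*Npy1r* and *Npy5r* are neighbours on chromosome 8, on opposite strands, with 9063 bases between them. *Npy5r* spans chr8:66679965-66688128 on the minus strand and *Npy1r* chr8:66697192-66706792 on the plus strand (GRCm38). *Pomc* lies at chr12:3954951-3960642 on the plus strand and *Cartpt* at chr13:99898489-99901091 on the minus strand. The promoters of these 4 genes are shown because they form the 2 pairs of members with the highest mean odds ratio of being found in the same neuron after the pairs among *Agrp*, *Npy* and *Npy2r*. Each runs from 250 bases before to 50 bases after the RefSeq start (GRCm38.p6), 5′ to 3′ on the gene's own strand, at chr12:3954695-3954994 (plus), chr13:99900634-99900933 (minus), chr8:66697172-66697471 (plus) and chr8:66688045-66688344 (minus). Capitals mark a match to TATAAA, the cyclic AMP response element TGACGTCA or TTCNNNGAA, a STAT site, searched on both strands.
Pomc: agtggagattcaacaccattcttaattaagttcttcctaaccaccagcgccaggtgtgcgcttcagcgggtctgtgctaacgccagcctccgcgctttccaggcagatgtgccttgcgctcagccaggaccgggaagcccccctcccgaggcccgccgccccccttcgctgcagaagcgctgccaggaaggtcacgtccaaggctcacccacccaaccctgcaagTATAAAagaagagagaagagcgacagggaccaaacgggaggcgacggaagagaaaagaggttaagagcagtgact
Cartpt: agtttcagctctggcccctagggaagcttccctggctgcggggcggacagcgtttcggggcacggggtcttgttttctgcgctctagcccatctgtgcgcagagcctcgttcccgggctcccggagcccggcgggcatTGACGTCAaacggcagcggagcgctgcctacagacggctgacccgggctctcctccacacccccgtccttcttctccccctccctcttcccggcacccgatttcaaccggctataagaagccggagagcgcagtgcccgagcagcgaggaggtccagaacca
Npy1r: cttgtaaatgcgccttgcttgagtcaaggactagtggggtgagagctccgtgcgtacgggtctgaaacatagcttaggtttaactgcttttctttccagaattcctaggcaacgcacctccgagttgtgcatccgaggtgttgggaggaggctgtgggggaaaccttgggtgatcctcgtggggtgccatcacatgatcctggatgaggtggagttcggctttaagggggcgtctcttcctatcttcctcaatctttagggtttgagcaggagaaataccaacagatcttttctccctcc
Npy5r: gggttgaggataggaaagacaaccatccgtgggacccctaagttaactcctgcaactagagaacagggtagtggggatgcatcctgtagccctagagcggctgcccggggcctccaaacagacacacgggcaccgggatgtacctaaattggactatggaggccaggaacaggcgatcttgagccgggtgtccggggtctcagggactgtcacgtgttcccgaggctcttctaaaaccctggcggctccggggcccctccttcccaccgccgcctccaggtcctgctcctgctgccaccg
The *Pomc* promoter held TATAAA with its first base at -25 from the start, and the *Cartpt* promoter held TGACGTCA at -112, where 13.6% and 1.79% of 32851 RefSeq promoters of this length held these motifs. TTCNNNGAA, found in 8.30% of promoters, was in neither. The *Npy1r*, *Npy5r* and *Npy* promoters held none of the 3 motifs. The table held a promoter for 7 of the 9 members, and those of *Agrp* and *Mc4r* were not used here. In the GENCODE annotation the *Agrp* gene spans chr8:105566698-105637393 on the minus strand and shares 114 exon bases with the lincRNA Gm5914 on the same strand.

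The kept nuclei numbered 10307, 18907, 2203 and 7759 in DOCA-salt 1, DOCA-salt 2, Sham 1 and Sham 2, with median UMIs of 2401, 2534, 8215 and 3278. A marker gate that used no member gene called 6519, 12220, 1394 and 4398 of them neurons and 252, 945, 96 and 480 oligodendrocytes. In microglia, oligodendrocytes and the other non-neuronal classes the neuron markers were at 29.1% to 57.6% of their level in neurons (37.2% to 42.8% in oligodendrocytes), so no class was free of neuronal transcripts. What part of this was free RNA, doublets or the gate's limits was not tested. Of 41649 barcodes, 141 occurred in more than 1 library. DOCA-salt 2 stood apart before any test. It held 109 *Agrp* UMIs in all against 7815, 1108 and 3406 in the other libraries, and it was rich in neurons with melanin-concentrating hormone (460 MCH neurons) and orexin (213). Its arcuate label thus stands beside a near lack of the ARC marker *Agrp*, but not all classes were scarce. Neurons past a gate for Tac2 alone made up 1.08% of its kept nuclei, against 1.16%, 1.32% and 1.12% in DOCA-salt 1, Sham 1 and Sham 2. Those past a gate for Ghrh alone made up 0.0899%, against 0.631%, 0.318% and 0.516%. Where the punch lay was not tested, and values are given per library throughout.

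For each gene, a nucleus was called high when it held at least 5 UMIs of it and at least 4 times the number expected from that library's oligodendrocytes. Agrp-high neurons numbered 396, 1, 34 and 134 in the order DOCA-salt 1, DOCA-salt 2, Sham 1, Sham 2, which is 6.07%, 0.00818%, 2.44% and 3.05% of neurons. Npy-high neurons numbered 410, 41, 44 and 214 in the same order (6.29%, 0.336%, 3.16% and 4.87%). Pomc-high neurons numbered 261, 18, 45 and 261 (4.00%, 0.147%, 3.23% and 5.93%). Cartpt-high neurons numbered 471, 418, 66 and 282 (7.23%, 3.42%, 4.73% and 6.41%). DOCA-salt 2 was lowest for all 4 genes, with exact 95% intervals below those of the other 3 libraries for *Agrp*, *Npy* and *Pomc*, while its *Cartpt* interval of 3.10% to 3.76% overlapped that of Sham 1. The high neurons held between 30.9% and 65.1% of a peptide gene's UMIs in 3 libraries and 4.59%, 33.3%, 28.5% and 53.3% of the *Agrp*, *Npy*, *Pomc* and *Cartpt* UMIs in DOCA-salt 2.

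**Figure D1:**
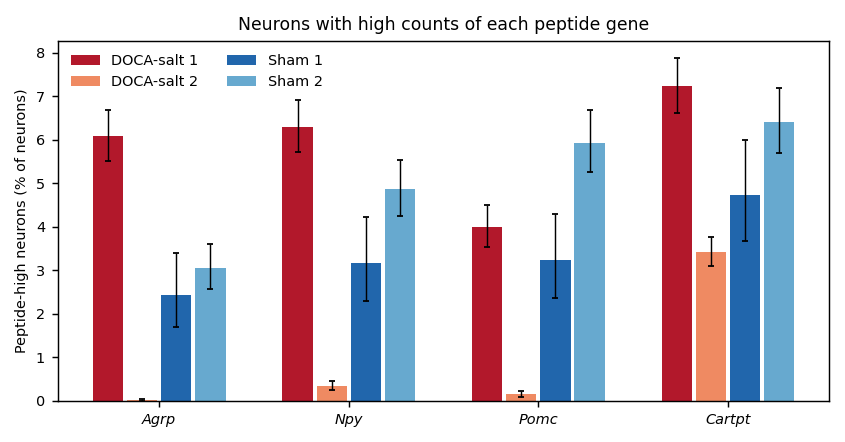
The share of neurons that were high for each peptide gene (y axis, percent) in the 4 libraries (bars), with exact 95% binomial intervals that cover counting error only. The orange bars of DOCA-salt 2 are near 0 for *Agrp*, *Npy* and *Pomc* and at 3.42% for *Cartpt*.

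*Agrp* and *Npy* shared their high neurons. Of the Agrp-high neurons 76.5%, 91.2% and 87.3% were also Npy-high in DOCA-salt 1, Sham 1 and Sham 2, against 1.75%, 0.956% and 2.27% of the other neurons. In the opposite direction 73.9%, 70.5% and 54.7% of Npy-high neurons were Agrp-high. The single Agrp-high neuron of DOCA-salt 2 held no *Npy* UMI, and none of its 41 Npy-high neurons was Agrp-high. Of those 41 neurons 29 (70.7%) were past the gate for somatostatin (Sst), and Sst neurons held 39.5% of all *Npy* UMIs of that library.

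*Pomc* and *Cartpt* overlapped less. Of the Pomc-high neurons 43.3%, 27.8%, 26.7% and 41.8% were Cartpt-high (DOCA-salt 1, DOCA-salt 2, Sham 1 and Sham 2), against 5.72%, 3.38%, 4.00% and 4.18% of the other neurons. Neurons past both the *Agrp* and the *Pomc* limit numbered 28, 0, 1 and 18, or 7.07%, 0%, 2.94% and 13.4% of the Agrp-high neurons. Such nuclei can be doublets or carry free RNA, and their origin was not tested. Cartpt-high neurons were mostly of other kinds: in DOCA-salt 2, 228 of 418 (54.5%) were MCH neurons, which held 40.3% of that library's *Cartpt* UMIs.

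Away from the high neurons the peptide genes had a rate per UMI below that of oligodendrocytes, except *Pomc* in DOCA-salt 2. The measure was the rate per UMI that would leave the observed number of nuclei without a UMI, which is not carried by a few rich nuclei. For the neurons outside the high set this rate, divided by that of oligodendrocytes, was 0.658, 0.489, 0.543 and 0.752 for *Agrp* in DOCA-salt 1, DOCA-salt 2, Sham 1 and Sham 2. It was 0.702, 0.563, 0.516 and 0.586 for *Npy*, 0.795, 1.05, 0.747 and 0.515 for *Pomc*, and 0.941, 0.538, 0.735 and 0.702 for *Cartpt*. High nuclei were left out of the neurons but not of the oligodendrocytes, which lowers this ratio by construction. Over all neurons the ratio ran from 0.496 to 0.968 for *Agrp* and from 0.548 to 0.9995 for *Npy*. For *Pomc* it then ran from 0.614 to 1.07 and for *Cartpt* from 0.613 to 1.12. At equal depth (nuclei thinned to 1000 UMIs, shallower ones left out) *Agrp* was found in 9.76%, 0.134%, 3.67% and 5.74% of neurons, in the same order. Its shares in oligodendrocytes were 9.35%, 0.442%, 2.08% and 3.54%. *Cartpt* was found in 16.6%, 10.1%, 10.9% and 13.8% of neurons and 11.5%, 10.4%, 7.29% and 11.9% of oligodendrocytes. *Npy* was higher in neurons of DOCA-salt 1 and Sham 2 only, and *Pomc* in those of DOCA-salt 2 and Sham 1 only. An unthinned share of neurons with at least 1 UMI, such as 17.5% for *Agrp* or 33.0% for *Cartpt* in DOCA-salt 1, does not by itself show a level above that of oligodendrocytes. In oligodendrocytes themselves the corresponding shares were 9.52% and 16.7%, at a median depth of 1128 UMIs against 3052 in neurons. The rate ratio over all neurons of DOCA-salt 1 was 0.968 for *Agrp* and 1.12 for *Cartpt*.

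For the receptors the same ratio was mostly above 1. It was so in all 4 libraries for *Mc3r* (1.39 to 5.18), *Npy1r* (1.38 to 3.14) and *Npy2r* (1.18 to 1.84). The oligodendrocytes held only 1, 3, 2 and 9 *Mc3r* UMIs in DOCA-salt 1, DOCA-salt 2, Sham 1 and Sham 2, so 5.18 in DOCA-salt 1 rested on 1 UMI. In CPM over all neurons, *Npy1r* in DOCA-salt 1 stood at 0.911 times the oligodendrocyte level. For *Npy5r* the rate ratio was 0.961 in DOCA-salt 1 and 1.72, 1.05 and 1.45 in the others. *Mc4r* had 1, 0, 4 and 0 UMIs in the oligodendrocytes, where a count of 0 allows a share of nuclei with a UMI, not of nuclei that express the gene, of up to 0.317% in DOCA-salt 2 and 0.625% in Sham 2, and its ratio was 1.85 in DOCA-salt 1 and 0.783 in Sham 1. Thinned to 1000 UMIs per nucleus, *Mc3r* was found in 0.953%, 0.606%, 1.01% and 0.888% of neurons and in none of the oligodendrocytes of any library. Nuclei with fewer than 1000 UMIs were left out there. A count of 0 in so few oligodendrocytes does not place their share below that of neurons in every library. Unthinned, *Mc3r* was found in 3.94%, 2.33%, 6.38% and 5.23% of neurons and 0.397%, 0.317%, 2.08% and 1.67% of oligodendrocytes.

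**Figure D2:**
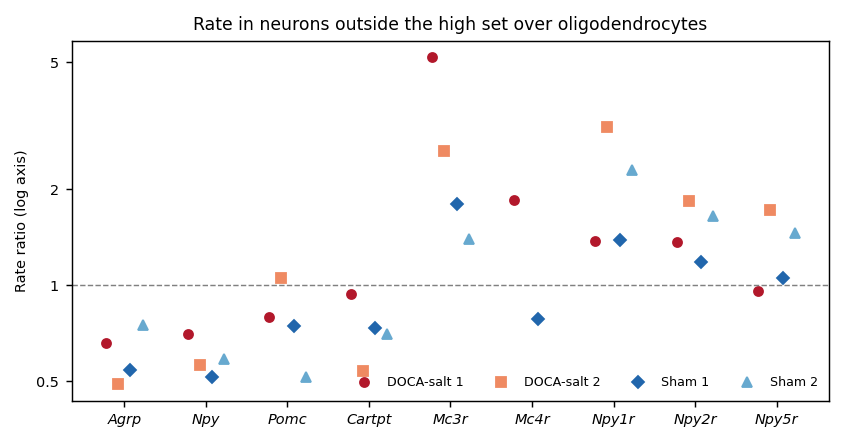
The rate of each member in neurons outside its own high set divided by its rate in oligodendrocytes (y axis, log scale) for each library (points). High nuclei were kept among the oligodendrocytes, which were shallower than the neurons. Points under the dashed line at 1 are below the oligodendrocyte level, as nearly all of those of *Agrp*, *Npy*, *Pomc* and *Cartpt* are, and *Mc4r* has no point for DOCA-salt 2 and Sham 2, whose oligodendrocytes held none of its UMIs.

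The *Agrp* share of the summed *Agrp* and *Npy* UMIs differed between libraries. In the Agrp-high neurons of DOCA-salt 1, Sham 1 and Sham 2 it was 50.2%, 35.3% and 35.8%, and in the Npy-high neurons 42.7%, 30.8% and 29.6%. Choosing nuclei by *Agrp* raises this share by construction, and choosing them by *Npy* lowers it. In neurons outside both high sets it was 46.0%, 26.5% and 25.8%, and in oligodendrocytes 45.2%, 27.0% and 22.3% (exact 95% intervals 35.9% to 54.8%, 19.0% to 36.3% and 17.6% to 27.6%). The values of these neurons lay within the intervals of the oligodendrocytes. In DOCA-salt 1 the *Agrp* share was 54.1% in astrocytes (47.5% to 60.7%) and 59.8% in microglia (48.7% to 70.1%). It was 25.8% in endothelial cells (11.9% to 44.6%) and 49.6% in oligodendrocyte precursors (40.0% to 59.1%). Of these intervals only that of the precursors held the 46.0% of neurons outside the high sets. In Sham 1 and Sham 2 the intervals of the same classes all held the value of these neurons. In DOCA-salt 2 the *Agrp* share was 16.5% in neurons outside the high sets and 20.5% in oligodendrocytes (9.30% to 36.5%). All intervals of this paragraph treat UMIs as independent and are too narrow where a few nuclei are rich. In astrocytes of DOCA-salt 1, 1 nucleus held 54 of the 124 *Agrp* UMIs.

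A few oligodendrocyte nuclei were rich in a peptide transcript. In DOCA-salt 1 *Pomc* stood at 993 CPM (the UMIs of a gene scaled to a common total) in oligodendrocytes against 363 CPM in neurons, and 7 high nuclei held 96.0% of those *Pomc* UMIs, the top nucleus alone 345 of 524. Whether these are doublets or free RNA was not tested.

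Summed over all neurons and set against oligodendrocytes of the same library, 3 of the 9 members were called higher and none lower (edgeR quasi-likelihood test, library as a block, FDR over 13981 genes under 0.05), beside 37.7% of all genes called, 20.1% higher and 17.5% lower. These were *Npy1r* (log2 fold change 0.59 ± 0.21 SE, adjusted p = 0.0326), *Agrp* (0.53 ± 0.18, adjusted p = 0.0272) and *Cartpt* (0.43 ± 0.10, adjusted p = 0.00209). The median of the 9 members was 0.43 and that of all genes 0.07. Without the oligodendrocytes that were high for a peptide gene, 7 members were called higher, all but *Mc4r* and *Npy5r*, beside 37.8% of all genes. Leaving out those nuclei lowers the reference for the peptide genes by construction. Without DOCA-salt 2 the calls fell to 1 member, without Sham 2 to 1, and without Sham 1 they rose to 5, 4 higher and 1 lower.

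Neuron classes were then gated by a marker or marker set, and each class was compared with all other neurons of its library. Class names are those of the gates. A class had to have at least 10 nuclei in at least 3 libraries. Agrp, Ghrh, magnocellular-type, suprachiasmatic and cortical-type neurons had only 3. None of those 3 could be left out, and leaving out the remaining library repeated the main fit. The counts of alternatives given for these classes include that repeat. *Agrp* and *Pomc* are gate genes, whose nuclei were kept out of other classes, so they were given no test, and for the other 7 members 39 of 84 pairs of a member and a class were called, 13 higher and 26 lower. The share of all genes called ranged from 0.608% to 12% among the 12 classes. Where *Npy* or *Cartpt* was lower, the comparison held the *Agrp* and Pomc neurons themselves. Against neurons outside both gates 33 pairs were called, 15 higher and 18 lower. There the share of all genes called was 10.2% for Agrp neurons, 6.51% for *Pomc*, 4.3% for Ghrh, 1.7% for Sst, 1.02% for Tac2, 2.07% for Sim1, 0.518% for cortical-type, 0.634% for suprachiasmatic, 5.59% for magnocellular-type, 12% for ventromedial, 5.67% for other GABAergic and 7.53% for other glutamatergic neurons.

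Agrp neurons (330, 23 and 100 nuclei in DOCA-salt 1, Sham 1 and Sham 2) were higher in *Npy*, *Npy2r* and *Mc3r* and lower in *Npy1r* and *Cartpt*, 5 of 7 members tested where 9.9% of all genes were called (4.26% higher and 5.64% lower). *Npy* stood at 2285, 2668 and 2585 CPM, with UMIs in 93.6%, 100% and 100% of nuclei, and was 4.46 ± 0.08 higher on the log2 scale, with an adjusted p too small to be printed. *Npy2r*, the autoreceptor, stood at 125, 128 and 123 CPM in the 3 libraries, with UMIs in 40.6%, 82.6% and 67% of nuclei. All 3 values lay far above those of all neurons (36.7, 24.7 and 33.2 CPM) and of oligodendrocytes (26.5, 16.9 and 22.9 CPM). *Npy2r* was 2.06 ± 0.12 higher (adjusted p = 4.68e-59). *Mc3r*, the melanocortin receptor found on *Agrp* and Pomc neurons, stood at 17.8, 6.89 and 21.3 CPM against 10.4, 6.66 and 9.08 in all neurons, so that Sham 1, with 2 UMIs, did not differ in level. Its fitted difference was 0.92 ± 0.27 (adjusted p = 0.0114), and this call held in 5 of 8 alternatives. *Npy1r* was lower by a log2 difference of -0.76 ± 0.16 (adjusted p = 8.14e-05), and *Cartpt* by -0.73 ± 0.09 (adjusted p = 2e-14). The *Npy1r* call was kept in 5 of 8 alternatives, and the *Cartpt* difference was -0.36 against neurons outside the *Agrp* and *Pomc* gates. Nuclei past a second gate were not in this class but stayed among the other neurons. For neither gene did the whole set of Agrp-high neurons, given below, stand under the other neurons in every library. *Mc4r* had 0, 2 and 2 UMIs in these nuclei and was not called (-1.70 ± 0.66, adjusted p = 0.0901), and *Npy5r* stood at 14.7, 6.89 and 11.9 CPM (-0.04 ± 0.28, adjusted p = 0.975).

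Pomc neurons (188, 16, 34 and 186 nuclei in DOCA-salt 1, DOCA-salt 2, Sham 1 and Sham 2) were higher in *Cartpt*, *Npy1r*, *Npy5r* and *Npy2r* and lower in *Npy*, 5 of 7 members where 5.8% of all genes were called (2.42% higher and 3.38% lower). *Cartpt* stood at 1859, 1383, 1126 and 999.7 CPM, with UMIs in 79.3%, 68.8%, 73.5% and 78.0% of nuclei, and was 2.49 ± 0.07 higher (adjusted p = 1.91e-257). Both DOCA-salt pools were above both Sham pools in this class, but the treatment difference was not called. How many of all genes show such an order of pools was not counted. *Npy1r* stood at 205, 123, 108 and 142 CPM against 58.7, 14.4, 36.7 and 49.3 in all neurons, and was found in 51.6%, 37.5%, 52.9% and 53.8% of nuclei. The class was above all neurons in every library, by 1.84 ± 0.11 in the fit (adjusted p = 1.42e-63). *Npy5r*, which lies next to *Npy1r*, stood at 39.2, 20.5, 19.3 and 26.7 CPM against 14.1, 7.60, 7.66 and 13.1 in all neurons. Its values in this class were again higher in each of the 4 libraries, by 1.35 ± 0.22 (adjusted p = 9.01e-08), although DOCA-salt 2 held only 2 UMIs. *Npy2r* was 0.53 ± 0.16 higher (adjusted p = 0.0218), a call kept in 6 of 11 alternatives and lost without Sham 1 (0.42) and without Sham 2 (0.57). *Npy* was lower against all other neurons (-1.22 ± 0.10, adjusted p = 1.17e-30), a call that was lost when neurons past the *Agrp* and *Pomc* gates were left out of the comparison (-0.05). *Mc3r* (0.35 ± 0.31, adjusted p = 0.693) and *Mc4r* (-0.42 ± 0.48, adjusted p = 0.793) were not called.

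Ghrh neurons, which make growth hormone-releasing hormone, were few (65, 17 and 40 nuclei in DOCA-salt 1, DOCA-salt 2 and Sham 2, the 3 libraries in the fit), and 6 of 7 members were called where 3.82% of all genes were (1.99% higher and 1.84% lower). *Cartpt* stood at 1399, 1297 and 859 CPM and was found in 84.6%, 88.2% and 85.0% of nuclei. It was 1.87 ± 0.09 higher (adjusted p = 6.99e-82). *Npy1r* stood at 110, 71.5 and 146 CPM and was 1.36 ± 0.20 higher (adjusted p = 2.51e-09). *Mc3r* (25.3, 0 and 40.5 CPM, 1.67 ± 0.43, adjusted p = 0.00593) and *Npy5r* (34.7, 0 and 40.5 CPM, 1.36 ± 0.39, adjusted p = 0.0179) were called on 23 and 26 UMIs, with none in DOCA-salt 2, and were kept in 5 and 4 of 7 alternatives. *Npy2r* was lower (-1.36 ± 0.44, adjusted p = 0.0482), but this call held in only 1 of 7 alternatives. That 1 is the fit without Sham 1, which repeats the main fit for this class. *Npy* was also lower (-1.97 ± 0.21, adjusted p = 1.76e-18), by -0.79 (adjusted p = 0.0238) against neurons outside the *Agrp* and *Pomc* gates.

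Of the remaining 9 classes, 2 had a member called higher, Sst neurons and cortical-type neurons. In Sst neurons (1.62% of genes called) *Npy2r* stood at 38.3, 36.5, 39.4 and 51.8 CPM, 0.77 ± 0.18 higher (adjusted p = 0.0222). This call was kept in 5 of 11 alternatives, with differences from 0.41 to 1.10, and was lost without DOCA-salt 2 (0.41), without Sham 1 (0.78) and without Sham 2 (0.82). *Npy* there stood at 240, 185, 109 and 304 CPM and was not called against all other neurons (1.17 ± 0.43, adjusted p = 0.306), but was called against neurons outside the *Agrp* and *Pomc* gates (2.28 ± 0.34, adjusted p = 0.0006). In cortical-type neurons (0.61% called) *Npy1r* was 1.22 ± 0.23 higher (adjusted p = 4.47e-05, kept in 4 of 7 alternatives), which rested on DOCA-salt 1: its level there was 198 CPM in 105 nuclei, against 15.8 and 21.2 CPM in DOCA-salt 2 and Sham 1. In suprachiasmatic neurons *Npy* had no UMI in the 26 nuclei of DOCA-salt 2 and stood at 303 and 86.7 CPM in Sham 1 and Sham 2, where 1 nucleus of Sham 1 held 63 of its 73 UMIs.
The share of all genes called was 1.05% in Tac2, 2.26% in Sim1 and 6% in other GABAergic neurons. Lower calls were mostly those of *Npy* (9 of 12 classes) and *Cartpt* (9 of 12). *Npy2r* was lower in ventromedial (-1.76 ± 0.24, adjusted p = 8.71e-07), magnocellular-type (-1.26 ± 0.28, adjusted p = 0.00042) and other glutamatergic neurons (-0.68 ± 0.17, adjusted p = 0.0222, kept in 6 of 11 alternatives and lost without Sham 1, without Sham 2 and against neurons outside the *Agrp* and *Pomc* gates, at -0.42), where 12%, 5.69% and 8.27% of all genes were called. *Cartpt* in ventromedial neurons stood at 65.9, 40.2, 54.2 and 52.2 CPM and was lower by a log2 difference of -2.50 ± 0.13 (adjusted p = 1.11e-16). *Mc4r* was called in none of the 12 classes, with 3.71, 2.97, 6.52 and 5.42 CPM in all neurons. *Npy* in Agrp neurons, *Npy2r* in Agrp neurons, *Cartpt* and *Npy1r* in Pomc neurons, and *Cartpt* in Ghrh and ventromedial neurons were the called pairs that were kept in all of their alternatives. For the pairs in Agrp and Ghrh neurons these alternatives left out no library of the main fit, so dependence on a single library was not tested.

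**Figure D3:**
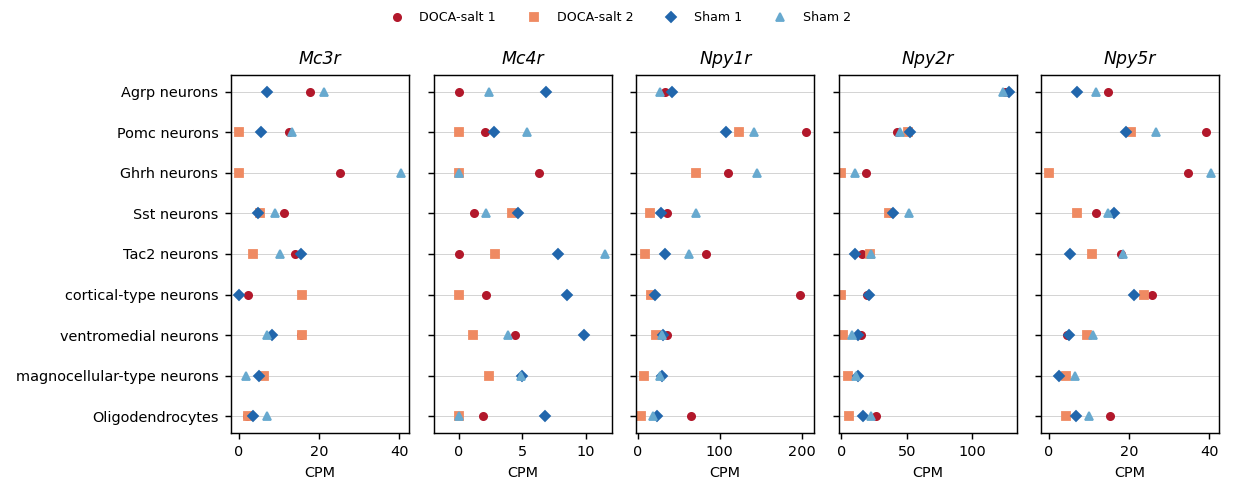
The level of each receptor gene (x axis of each panel, CPM) in neuron classes and oligodendrocytes (rows) of each library (points), shown where a class had at least 10 nuclei in a library. *Npy2r* is highest in Agrp neurons, near 125 CPM in 3 libraries. *Npy1r* and *Npy5r* stand high in *Pomc* and Ghrh neurons, but Ghrh neurons of DOCA-salt 2 had no *Npy5r* UMI. Cortical-type neurons have *Npy5r* levels like those of Pomc neurons: 25.8, 23.7 and 21.2 CPM in DOCA-salt 1, DOCA-salt 2 and Sham 1. These rest on 12, 3 and 5 UMIs.

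The *Agrp* and *Pomc* classes are subsets of the Agrp-high and Pomc-high neurons, so the receptor levels of the whole high sets are given only as a description. *Npy2r* stood at 107, 103 and 119 CPM in Agrp-high neurons of DOCA-salt 1, Sham 1 and Sham 2, against 29.6, 22.4 and 28.9 in other neurons. *Npy1r* stood at 151, 93.2, 106 and 133 CPM in Pomc-high neurons of the 4 libraries against 51.9, 14.2, 34.1 and 40.9, and *Npy5r* at 30.3, 15.5, 18.3 and 25.2 against 12.9, 7.58, 7.25 and 11.8. High neurons were deeper than others (median UMIs of 5100, 4486, 11977 and 7992 in Pomc-high neurons against 2984, 2985, 9787 and 4606), so that shares of nuclei with a UMI could differ by depth alone, whereas CPM takes the depth into account.

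In other non-neuronal classes 8 of 21 pairs of a member and a class differed from oligodendrocytes, where 27.6% of all genes were called in astrocytes, 21.1% in oligodendrocyte precursors, 17.9% in endothelial cells and 19.6% in microglia (8.56% higher and 11% lower). *Agrp* (1.13 ± 0.21), *Cartpt* (0.77 ± 0.12) and *Npy* (0.50 ± 0.16) were higher and *Pomc* was lower (-0.81 ± 0.15) in microglia. *Pomc* was also lower in oligodendrocyte precursors (-2.44 ± 0.27) and endothelial cells (-1.53 ± 0.29). Without the peptide-high oligodendrocytes named above no pair was called lower, 10 of 19 pairs were higher (beside 27.7%, 22.4%, 18.9% and 20.9% of all genes called in the same 4 classes), and *Pomc* in microglia was higher, by 1.09 ± 0.22. Peptide-high nuclei were left out of the oligodendrocytes only, which raises these differences for the peptide genes by construction. In that setting astrocytes were higher in *Pomc* (1.72 ± 0.19), *Agrp* (0.90 ± 0.23) and *Cartpt* (0.61 ± 0.13). The neuron markers were at 44.1% to 55.1% of the neuron level in microglia, 29.1% to 39.2% in astrocytes and 37.2% to 42.8% in oligodendrocytes. Where the peptide transcripts of these classes came from was not tested.

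Co-detection was measured as the odds ratio of 2 members in the same neuron within 20 bins of depth, which is 1 when they are independent. *Agrp* and *Npy* had the highest, at 10.9, 3.32, 2.01 and 4.43 in DOCA-salt 1, DOCA-salt 2, Sham 1 and Sham 2 (702 neurons with both in DOCA-salt 1, against 283 for independence, and 8 against 2.71 in DOCA-salt 2). *Agrp* with *Npy2r* followed (2.70, 1.53, 1.83 and 3.31), then *Npy* with *Npy2r* (2.30, 2.82, 1.31 and 1.91), *Npy1r* with *Npy5r* (2.18, 1.54, 1.26 and 2.47) and *Pomc* with *Cartpt* (2.12, 1.03, 1.65 and 1.93). *Pomc* with *Npy1r* had 2.02, 0.951, 1.05 and 1.81, so that DOCA-salt 2, with few Pomc neurons, was not above 1. Of the 36 pairs 13 were above 1 in all 4 libraries, among them *Agrp* with *Pomc* (1.07 to 1.52) and *Agrp* with *Cartpt* (1.11 to 1.85). The share over pairs of other genes was not counted. These ratios are descriptions over nuclei that share a library. In oligodendrocytes the ratio for *Agrp* and *Npy* was also above 1 in each library (1.82, 9.11, 1.94 and 3.02), on 7, 1, 11 and 18 nuclei with both genes, and for *Npy1r* and *Npy5r* it was 3.35, 0, 2.40 and 7.25 on 2, 0, 1 and 5. For *Agrp* with *Npy2r* it was 14.7, 14.9, 3 and 2.95 on 6, 1, 3 and 5. For *Npy* with *Npy2r* it was 3.06, 4.85, 1.18 and 1.85 on 5, 1, 5 and 11. For *Pomc* with *Cartpt* it was 5.24, 0.950, 1.71 and 1.91 on 14, 4, 18 and 39. For none of these pairs were neurons above oligodendrocytes in all libraries. What part of the odds ratios in neurons is free RNA was not tested.

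**Figure D4:**
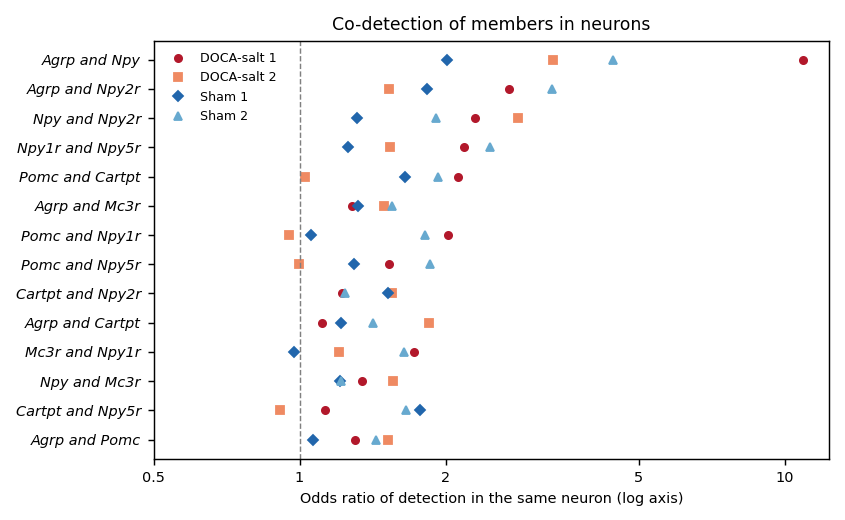
The odds ratio that 2 members are found in the same neuron (x axis, log scale) for the 14 pairs with the highest geometric mean over the libraries (rows), with a point per library and the value of independence, 1, as a dashed line. *Agrp* and *Npy* lie between 2.01 and 10.9, and *Npy1r* and *Npy5r* between 1.26 and 2.47.

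Over 69 sums of a class in a library, the genes most like each member by Pearson correlation of log2(CPM + 10) were *Npy* (0.88), Corin (0.75) and Atp7a (0.72) for *Agrp*, and *Npy2r* (0.73), Tbx3 and Bbx for *Npy*. For *Npy1r* they were Hs2st1 (0.72), Nsd1 and *Npy5r* (0.67), for *Npy5r* *Npy1r*, Neb and Hs2st1, and for *Npy2r* *Npy*, Plagl1 (0.71) and Irs4 (0.66). *Npy1r* was among the 3 most like *Pomc* (0.55, beside Hspb8 at 0.62 and Tbx3). The genes most like *Cartpt* (Fkbp11, Cpne4 and Parm1), *Mc3r* (Elp3, Lamb3 and Rwdd2a) and *Mc4r* (Pde2a, Wdr43 and Hgsnat) reached at most 0.64. The sums of a library share its depth and free RNA.

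Between treatments none of the 9 members was called in all nuclei or in all neurons (edgeR quasi-likelihood test, 2 pools against 2, FDR over all genes under 0.05), and no gene at all was called there (0% of 16564 and of 15836), although 1399 and 1230 genes had an unadjusted p under 0.05 in edgeR; DESeq2 called none of the members either. *Cartpt* stood at 364 and 345 CPM in neurons of the DOCA-salt pools and 151 and 253 in those of the Sham pools (log2 difference 0.78 ± 0.26, edgeR adjusted p = 0.640). *Mc4r* stood at 3.71 and 2.97 CPM against 6.52 and 5.42 (-0.88 ± 0.29, adjusted p = 0.640). *Agrp* stood at 219, 1.55, 55.2 and 86.8 CPM in DOCA-salt 1, DOCA-salt 2, Sham 1 and Sham 2, so that its mean of 110 ± 154 (SD, n = 2) in DOCA-salt neurons against 71.0 ± 22.4 in Sham neurons was set by 1 pool. *Npy* (254, 13.4, 130 and 206 CPM) and *Pomc* (363, 34.7, 144 and 310) followed the same order of pools, with DOCA-salt 1 highest and DOCA-salt 2 lowest. *Npy1r* (58.7, 14.4, 36.7 and 49.3 CPM), *Mc3r* (10.4, 5.82, 6.66 and 9.08), *Npy2r* (36.7, 12.1, 24.7 and 33.2) and *Npy5r* (14.1, 7.60, 7.66 and 13.1) did likewise, and the log2 differences of these 4 receptors lay between -0.31 and 0.01. From such sums alone, fewer cells of a type and less RNA per cell cannot be told apart. The high neurons give a number of nuclei and the UMIs in each for a peptide gene, within nuclei chosen for high counts. Pomc-high neurons numbered 261, 18, 45 and 261 in the same order of libraries (4.00%, 0.147%, 3.23% and 5.93% of neurons). Their median *Pomc* UMIs were 15, 17.5, 12 and 18, at median depths of 5100, 4486, 11977 and 7992 UMIs. The medians of *Pomc* were not scaled to depth, so they do not compare RNA per cell between libraries.

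Leaving out a DOCA-salt pool left 1 pool against 2, so only the size of a difference is given. Without DOCA-salt 1 the difference of *Agrp* was -5.51 in neurons. The signs of several members turned when a library was left out, as given below. In single classes 1 of 62 tests of a member was called, *Cartpt* in microglia (1.95 ± 0.38, adjusted p = 0.024), where 0.123% of genes were called. In the other classes whose members were all uncalled, that share was 0.0099% in oligodendrocytes, 0.0419% in astrocytes, 0.0769% in oligodendrocyte precursors, 0.0177% in endothelial cells, 0.00886% in Sst neurons, 0.0128% in Sim1 neurons, 0.0775% in ventromedial neurons and 0.00827% in other glutamatergic neurons, and 0% in Tac2 and other GABAergic neurons. Microglia held 346, 731, 135 and 143 CPM of *Cartpt*, the highest count in 1 nucleus being 93 of the 255 UMIs in DOCA-salt 2, while 23.5%, 23.8%, 33.3% and 26.0% of microglia had a UMI. The call was lost with all deposited barcodes, with the stricter gate and without Sham 1 or Sham 2. DOCA-salt 2 is the library rich in MCH neurons and their *Cartpt*, and the part of free RNA in this difference was not tested. In Pomc neurons none of the members tested was called between treatments, where 0.29% of genes were. *Cartpt* there differed by 0.59 ± 0.24 (edgeR adjusted p = 0.520).

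**Figure D5:**
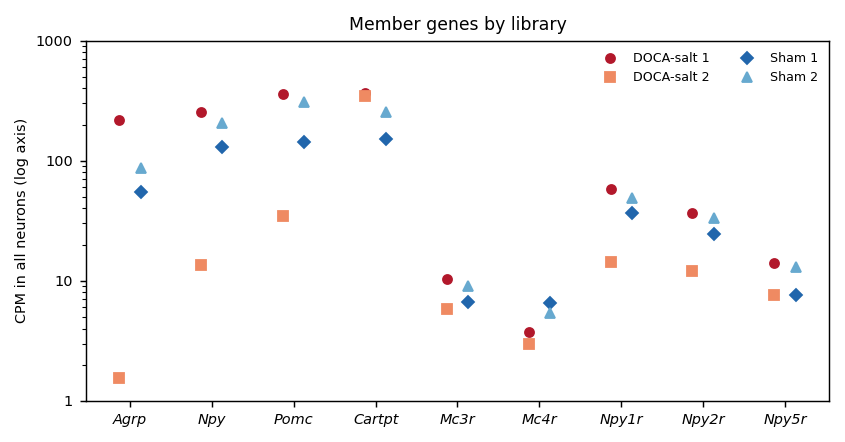
The level of each member in all neurons (y axis, CPM on a log scale) of each library (points). For 7 of the 9 genes DOCA-salt 1 is highest and DOCA-salt 2 lowest, so that both Sham pools lie between the DOCA-salt pools.

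Of 30 other genes of the pathway none was called between treatments in all neurons (20 tested) or all nuclei (21 tested), with medians of 0.04 and -0.003 beside 0.03 and 0.03 over all genes. In Agrp neurons 5 of 19 tested were higher and 3 lower, with a median of -0.03 (9.9% of all genes called, median -0.01). The higher ones were the ghrelin receptor Ghsr (2.00), the leptin receptor Lepr (1.99), Socs3 (1.84) and Stat3 (1.12), which act downstream of it, and Foxo1 (0.93), while Bdnf (-1.90), Cpe (-0.29) and Pcsk2 (-0.28) were lower. In Pomc neurons, where 5.8% of all genes were called, 4 of 19 were higher, Lepr (1.39), Socs3 (1.22), Stat3 (1.02) and the prohormone convertase Pcsk1 (0.73), and 4 lower, Bdnf (-0.95), Foxo1 (-0.77), the *Mc4r* accessory protein Mrap2 (-0.46) and Pam (-0.23). Ghrh neurons, where 3.82% of all genes were called, were higher in Ghsr (2.91), Foxo1 (2.17) and Stat3 (0.59) and lower in Bdnf (-1.55) and Pcsk2 (-1.30). Neurons stood above oligodendrocytes in 10 of 19, where 37.7% of all genes were called, among them Pcsk1 (0.54), Pcsk2 (0.61), Pam (0.59) and Scg5 (0.39), 4 genes of prohormone processing, and in Mrap2 (0.70), and below in Atrn (-0.39), Cpe (-0.20), Foxo1 (-0.53) and Insr (-0.26). None of the 8 other ligands and receptors, such as Pyy and Mc5r, passed the filter on low counts in any of these fits.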

How the data were processed

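The deposited files hold whole UMI counts per gene and barcode, which the authors made with Cell Ranger 3.0.1 on mm10 (GRCm38), per the labels' processing notes. They were not normalised and hold only barcodes called as nuclei. As in the study, a barcode was kept if its detected genes lay between 200 and 7000, its UMIs below 25000 and its mitochondrial share below 15%. Non-neuronal classes needed a log2 score of at least 1.5 over the library mean, at least 3 markers, a lead of 1 over the next list and neuron markers under 0.8 times the library mean. Neurons were nuclei of no such list with neuron markers at or above 0.7 times that mean (1233, 2410, 383 and 992 nuclei lay within 0.1 of this limit). Neuron classes needed 5 UMIs of a single marker, or several UMIs of a marker set, and 4 times the oligodendrocyte rate, and nuclei past more than 1 gate were set apart (287, 357, 72 and 171), as were mixed nuclei. No doublet caller was run. The limits were set after several had been tried on these data (scores of 1, 1.5 and 2, UMI minimums of 2, 3, 5 and 10), and the rate from nuclei without a UMI and the number of depth bins were chosen after seeing results. The members and lists were chosen with earlier results of these data known.

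Counts were summed per class and library and tested with edgeR 4.0.16 (R 4.3.3, TMM, filterByExpr, quasi-likelihood, Benjamini-Hochberg FDR over all genes in a fit under 0.05), as the pool is the unit of replication; nuclei were not. The study's MAST test on single nuclei was not run. The smallest p of a two-sided exact permutation test of 2 pools against 2 is 0.333. Treatment tests had no block, class tests the library as a block. That *Agrp* and *Pomc* get no test in any neuron class was decided after the fits were seen. Alternatives were DESeq2 1.42.0, RLE size factors, no filter on low counts, all barcodes, a stricter gate, no library block, a replicate block and leaving out each library. Shares have exact binomial intervals at 95%, which, like the limit of 3 counts for a count of 0, cover counting error only. The promoters printed were chosen after the co-detection had been seen. Scripts were tested on simulated data. The named genes were the 9 members, a list of 30 pathway genes (those called, and few others) and the 3 genes most alike to each member. Python 3.11.15 and scipy 1.17.1 were used.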

Additional observations from a re-analysis of the deposited data

Results flagged for a closer look

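The barcodes left out by the limits on genes, UMIs and mitochondrial share held UMIs of all 9 members. Over the 4 libraries these were 8631 UMIs of *Agrp*, 15655 of *Npy*, 22900 of *Pomc*, 24935 of *Cartpt*, 494 of *Mc3r*, 331 of *Mc4r*, 2617 of *Npy1r*, 1761 of *Npy2r* and 619 of *Npy5r*. In Sham 1, where the left-out barcodes held most UMIs of the library, 75.2% of the *Agrp* UMIs and 73.7% of the *Pomc* UMIs were in them, at 105 and 323 CPM against 52.1 and 174 CPM in the kept nuclei. The receptor genes stood at like levels in both sets, for example *Npy1r* in Sham 1 at 34.2 and 32.8 CPM. Between these 2 sets no test was made.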

How the results depend on the processing

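Limits: with 2 pools against 2, and DOCA-salt 2 apart, the treatment results say little of the members, and classes with few UMIs of a receptor limit what can be seen. For the tests of classes and backgrounds, 360 results under an alternative kept their direction and call, 117 lost the call and 6 reversed. Of the treatment results 167 kept theirs, 10 gained a call, 4 lost it and 28 reversed. Same-numbered pools did not deviate together (correlation of deviations -0.333 over 13359 genes), so the number was not taken as a pairing. With the replicate block 3 members were called in single classes and none in all nuclei or all neurons, and with the pool numbers crossed 5, 0 and 0. The share of all genes called is not given here for these settings or for the counts below. The counts of the report move as follows.

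Members called in single classes between treatments (1) became 0 with all barcodes, 0 with the stricter gate, 7 with no filter and 1 to 22 without a library. In all nuclei and in all neurons they were 0 to 5 without a library. Members called in neurons against oligodendrocytes (3) became 1 with DESeq2, 5 with no filter, 0 with no library block, 7 without peptide-high oligodendrocytes and 1 to 5 without a library. Pairs called in non-neuronal classes (8) became 1 with DESeq2, 13 with all barcodes, 1 with no library block and 5 to 8 without a library. Pairs called in neuron classes (39) became 23 with DESeq2, 6 with no library block and 19 to 26 without a library, since fewer classes then had enough libraries. With no library block the spread between libraries enters the error by construction. The members with a CPM ratio of neurons to oligodendrocytes above 1 in every library (3) became 0 with microglia as the background and 3 to 6 without a library. Members with a higher thinned share in neurons in all libraries (3) became 5 at 500 UMIs and 8 unthinned. Pairs with an odds ratio above 1 in all libraries (13 of 36) became 3 when thinned to 1000 UMIs with no depth bins, 6 with 2 UMIs of each gene and 13 to 18 without a library.

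Treatment differences whose sign turned when a library was left out ranged as follows in all nuclei and in all neurons: *Mc3r* from -0.47 to 0.25 and from -0.44 to 0.32, *Npy2r* from -1.17 to 0.24 and from -1.26 to 0.26, *Npy* from -3.57 to 0.39 and from -3.64 to 0.52, *Npy5r* from -0.42 to 0.42 and from -0.46 to 0.43, *Npy1r* from -1.47 to 0.58 and from -1.58 to 0.37, *Agrp* from -5.46 to 1.505 and from -5.51 to 1.54, and *Pomc* from -2.63 to 0.46 and from -2.70 to 0.60. Where 1 library was left in an arm, its spread was taken to be that of the other arm. *Agrp* also turned with the replicate block, to -1.78 and -1.75, and with crossed pool numbers, to -1.70 and -1.62. In neurons alone *Mc3r* stood at 0.011 with no filter and 0.038 with the stricter gate, and *Npy5r* at -0.018 with the stricter gate. *Agrp* in neurons against oligodendrocytes stood at -0.037 with DESeq2. Without peptide-high oligodendrocytes, *Npy* and *Cartpt* in oligodendrocyte precursors stood at 0.035 and 0.17, and *Pomc* in microglia and endothelial cells at 1.09 and 0.17. *Cartpt* in microglia against oligodendrocytes ranged from -0.020 to 1.10 without a library. The cause of these turns was not tested. The alternatives chosen after seeing the data were the oligodendrocytes without peptide-high nuclei, the comparison outside the *Agrp* and *Pomc* gates and the crossed pool numbers.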
